A study of Mus musculus with 102 samples.

Results

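The comparison spans the whole age range of the study: spleens of 5 mice at 26 months were set against spleens of 7 mice at 3 months. These are 12 of the 102 libraries of the series. All 12 animals were male wild-type (WT) mice of the BL6J background, none carried a labelled transgene or treatment, and each library came from 1 mouse with its own animal code. Bulk RNA sequencing of flash-frozen tissue was used, and each value is the number of reads of a gene after division by the size factor that the authors gave its library, called normalised reads below. Spleens of another set of male WT mice, 3 at 21 or 23 months (old WT) and 3 at 5 months (young WT), and the brains of the same 12 mice serve for comparison. The 5 old spleens are called 26-month spleens 1 to 5 and the young ones 3-month spleens 1 to 7, in numbers that only name them.

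The spleen joins 2 tissues. The white pulp holds B-cell follicles, T-cell zones and the marginal zone between them and the blood. The red pulp filters blood, and its macrophages take up worn red cells and return their iron. In mice, unlike in adult humans, the red pulp also keeps a capacity to form red cells, platelets and neutrophils, which is used when demand rises, so the RNA of a mouse spleen is a mixture of resident lymphocytes, macrophages and blood-forming precursors. In such bulk RNA, more or fewer cells of a type and more or less RNA per cell cannot be told apart.

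Reads in genes came to 4650017 to 9396019 per library at 26 months and 3105557 to 9068038 at 3 months, and 16243 genes had a value of 10 or more in at least 5 of the 45 spleen libraries and were tested. Pax5, the regulator that keeps B cells in their identity, was taken as a check of the tissue label and was read in all 12 libraries, at 778, 3028, 4485, 5330.0 and 2547 normalised reads at 26 months and 3019 to 7044 (median 5518) at 3 months. One young library stood apart. 3-month spleen 5 had summed levels of 234 normalised reads over 14 genes of the exocrine pancreas and 21141.5 over 20 extracellular matrix genes, against 25.0 to 171 and 5440.5 to 6908.5 in the other 3-month spleens. At 26 months these sums were 47.4 to 293 for pancreas and 5113 to 13096 for matrix. The trypsinogen Prss1 was listed at 0 in all 12 libraries. It was also at 0 in all 6 other WT spleens, where 1 young spleen had a pancreas sum of 4625. The B-cell gene Ms4a1 and the T-cell gene Cd27 were likewise listed at 0 in all 12 libraries. Such zeros were therefore not read as a lack of the RNA. The nuclear RNA Malat1 took 0.579 to 3.04% of the reads at 26 months and 0.806 to 1.92% at 3 months, with 0.806% in 3-month spleen 5. These values move with several results below, and their part in them was not tested.

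With 1 linear model over all 45 spleen libraries (limma on the log2 of the value plus 1, Benjamini-Hochberg adjustment over all tested genes), 60 genes passed an adjusted p of 0.05 between 26 and 3 months, which is 0.369% of those tested. Of them 33 were higher (0.203%) and 27 lower (0.166%). edgeR's quasi-likelihood test on the recovered whole reads called 707 genes (4.35%), 624 of them higher, and DESeq2 called 896 (5.52%), 727 of them higher (4.48%) and 169 lower (1.04%). All 60 limma calls were among those of edgeR, and 59 among those of DESeq2. The median log2 change over all tested genes was -0.01, and 49.6% of them changed upward.

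None of these limma calls could hold in every fit that left out 1 old animal, because the fit without 26-month spleen 2 called 0 of all tested genes. Leaving out 1 old library at a time left 16 limma calls without 26-month spleen 1, 0 without spleen 2, 1789 without spleen 3, 682 without spleen 4 and 3 without spleen 5. Of the 60 genes, 46 were called in 2 of these 5 fits, 11 in 3, 3 in 4 and 0 in all 5. edgeR called 76 genes without 26-month spleen 1, 459 without spleen 2, 2002 without spleen 3, 1069 without spleen 4 and 409 without spleen 5. A young library mattered as well: without 3-month spleen 5, limma called 685 genes and edgeR 1260. Leaving out any other young library left 13 to 21 limma calls, and with the 12 libraries alone limma called 0 genes, with 1965 at an unadjusted p under 0.05, against 2639 at that p in the model over all 45. These 2639 genes are 16.2% of those tested, in either direction. List members counted below at an unadjusted p, or in a fit without 1 library, stand beside this share and these totals.

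**Figure D1:**
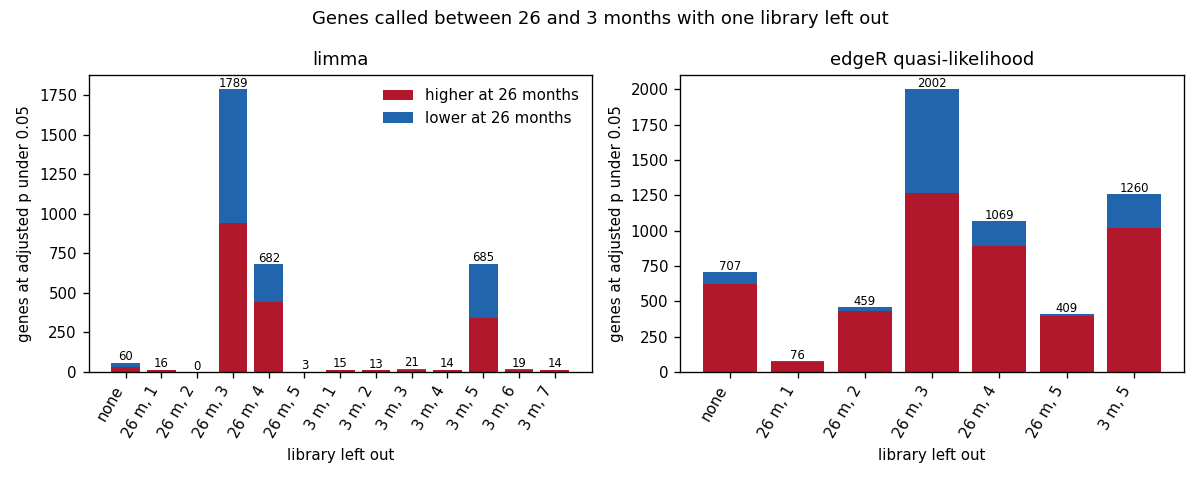
Number of genes called between 26 and 3 months (y axis, genes at adjusted p under 0.05, stacked as higher and lower at 26 months) when the library on the x axis is left out, for limma at left and edgeR at right. The limma count lay between 0 without 26-month spleen 2 and 1789 without 26-month spleen 3, and the edgeR count between 76 without 26-month spleen 1 and 2002 without 26-month spleen 3.

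The old spleens differed from each other more than the young ones did. The median SD of a gene on the log2 scale was 0.56 over the 5 libraries at 26 months and 0.46 over the 7 at 3 months. The median rank correlation of a library with the 3-month libraries was 0.880, 0.938, 0.952, 0.961 and 0.918 for 26-month spleens 1 to 5. In the mean levels of red cell precursor, haem synthesis, megakaryocyte and cell division genes, 26-month spleens 1, 2 and 5 stood above every 3-month spleen, while 26-month spleens 3 and 4 did not.

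**Figure D2:**
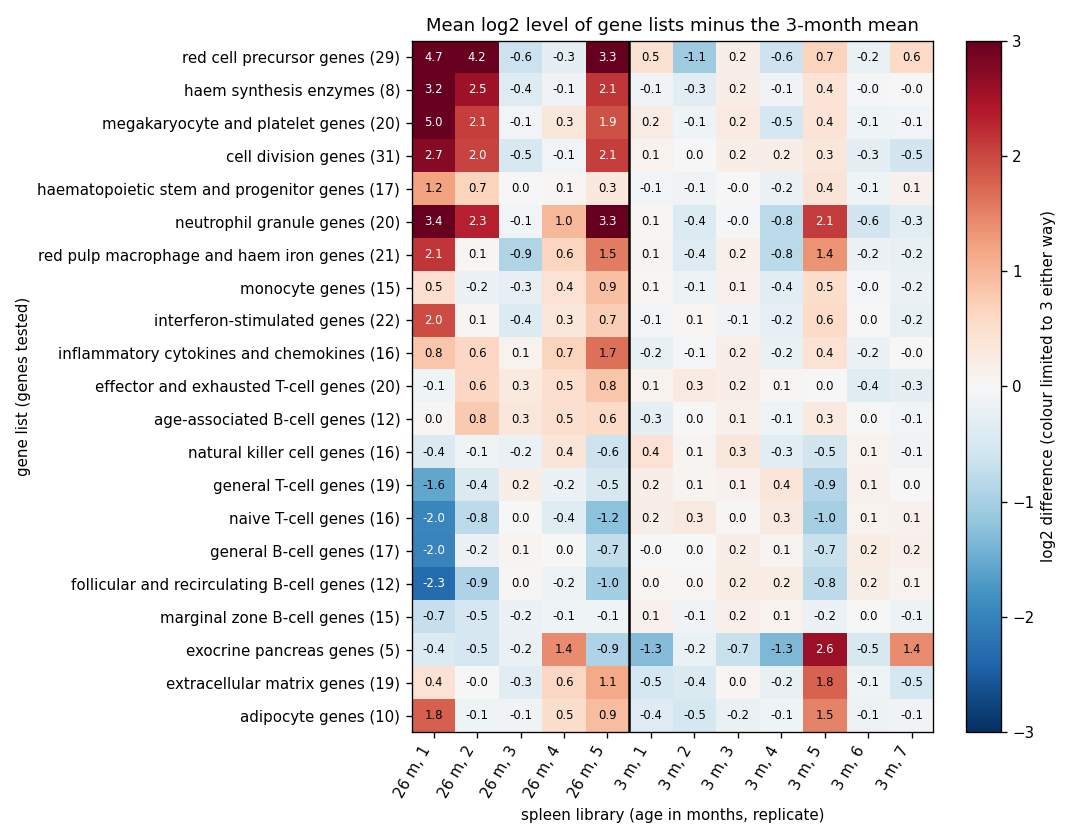
Mean log2 level of each gene list in each library minus its mean over the 3-month libraries (colour and printed value, log2 units); columns are the 5 spleens at 26 months, left of the line, and the 7 at 3 months, rows are gene lists with the number of genes tested. Red cell precursor genes stood 4.73, 4.15 and 3.33 above the 3-month mean in 26-month spleens 1, 2 and 5, and 0.63 and 0.28 below it in 26-month spleens 3 and 4.

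Red cell precursors express the erythropoietin receptor, a cytoskeleton and anion exchanger of their own and the enzymes of haem synthesis, and they divide several times before they lose their nucleus. Slc4a1, which encodes the anion exchanger of the red cell membrane and was named after its values were seen, had 14895, 9278, 149.5, 149 and 6361 normalised reads in 26-month spleens 1 to 5, against 129 to 464 (median 233) in the 3-month spleens. 26-month spleens 1, 2 and 5 lay above the young range, and 26-month spleens 3 and 4 inside it. Ank1, the ankyrin that ties the exchanger to the cytoskeleton, had 1776, 1391, 31.1, 43.1 and 858 at 26 months, against 9.92 to 97.4 (median 30.6) at 3 months. Epor, the erythropoietin receptor (chr9:21958897-21963506 on GRCm38), had 343, 168, 13.3, 7.43 and 115 at 26 months, against 0 to 13.3 (median 7.13) at 3 months. limma called neither Ank1 (log2 change 3.34, SE 0.91, limma adjusted p = 0.0684) nor Epor (log2 change 3.35, SE 0.97, limma adjusted p = 0.0807). edgeR called both higher, with an adjusted p of 0.00434 for each after rounding.

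Across the 29 tested genes of red cell precursors limma called 0 at 26 months, with 25 higher at an unadjusted p under 0.05, and edgeR called 22 higher, beside 3.84% of all genes called higher by edgeR. Their median log2 change was 2.47, and all 29 were higher on average, but no member separated the age groups without overlap. Without 26-month spleen 1, edgeR called 9 of the 29, and the median was 1.81 to 3.26 over the 5 fits that leave out 1 old library. The summed level of the list, which is dominated by globin genes, was 147811, 110702, 14134, 6954 and 53858 normalised reads at 26 months, against 6405 to 25749 at 3 months. Alas2, the erythroid enzyme that starts haem synthesis, was listed at 0 in all 12 libraries, which, as for Prss1, was not read as a lack of its RNA. Of the 8 tested haem synthesis enzymes, edgeR called 7 higher and limma 0, with 7 higher at an unadjusted p under 0.05, and without 26-month spleen 1 edgeR called 2. Cpox, the coproporphyrinogen oxidase of that pathway, had 3189, 1812, 109.6, 186 and 1156 at 26 months, against 118 to 206 (median 159.6) at 3 months (log2 change 2.06, SE 0.58, limma adjusted p = 0.0742, edgeR log2 change 3.00, adjusted p = 0.00319).

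Cell division genes showed the same division among the old animals. Mki67, which encodes the Ki-67 protein found in the nuclei of dividing cells (chr7:135689784-135716361), had 28797, 13770.3, 1082, 2240.1 and 17531 normalised reads in 26-month spleens 1 to 5, against 1292 to 3209.5 (median 1849) in the 3-month spleens. Cdk1, the kinase that starts mitosis, named after its values were seen, had 1656, 708, 104, 234 and 1546 at 26 months, against 118 to 392 (median 159) at 3 months. Mcm5 and Mcm6 encode subunits of the helicase that opens replication origins. For Mcm5 the values were 1289, 687, 237, 331 and 963 at 26 months, against 219 to 362 (median 258.9) at 3 months (log2 change 1.08, SE 0.28, limma adjusted p = 0.064). For Mcm6 they were 1537, 956, 275, 479.8 and 1079 at 26 months, against 310.4 to 478 (median 348) at 3 months (log2 change 1.00, SE 0.27, limma adjusted p = 0.0671). Of 31 tested division genes edgeR called 27 higher and limma 0, with 30 higher at an unadjusted p under 0.05. The median log2 change of the list was 1.21, with all 31 higher on average. Without 26-month spleen 1, edgeR called 1 of the 31, and without 26-month spleen 3 it called all 31.

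Promoter sequences are shown for 1 red cell gene and 2 division genes whose levels moved together in the old spleens. Each is the 250 bases before the RefSeq transcript start on the minus strand of GRCm38.p6, written 5′ to 3′ in the direction of transcription. Capitals mark 3 motifs on either strand. The motif CCAAT (read ATTGG on the other strand) and the motif TTTGAA (read TTCAAA there) occur in promoters of cell division genes. The motif AGATAA (read TTATCT there) is bound by GATA factors in red cell genes. The windows are chr7:135716380-135716629 for Mki67, chr10:69352913-69353162 for Cdk1 and chr9:21963577-21963826 for Epor.
Mki67: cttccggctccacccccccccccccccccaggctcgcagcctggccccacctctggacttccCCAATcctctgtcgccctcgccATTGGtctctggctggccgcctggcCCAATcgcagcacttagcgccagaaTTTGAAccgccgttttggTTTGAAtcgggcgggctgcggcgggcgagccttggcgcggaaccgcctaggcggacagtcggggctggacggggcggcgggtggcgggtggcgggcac
Cdk1: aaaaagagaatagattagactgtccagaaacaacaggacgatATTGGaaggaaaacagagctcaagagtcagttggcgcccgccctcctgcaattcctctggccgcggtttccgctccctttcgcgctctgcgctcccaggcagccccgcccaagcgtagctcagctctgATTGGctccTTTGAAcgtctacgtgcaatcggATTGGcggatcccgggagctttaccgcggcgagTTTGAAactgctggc
Epor: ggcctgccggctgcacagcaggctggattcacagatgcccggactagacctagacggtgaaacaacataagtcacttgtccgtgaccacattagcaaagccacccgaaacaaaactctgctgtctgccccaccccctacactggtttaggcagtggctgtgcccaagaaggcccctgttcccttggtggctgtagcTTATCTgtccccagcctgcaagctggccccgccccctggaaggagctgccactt
The Mki67 and Cdk1 windows each held 3 CCAAT and 2 TTTGAA motifs, and the Epor window held 1 AGATAA motif and none of the others. Among the 28 division genes with a window, 23 held CCAAT (82.1%) and 9 held TTTGAA (32.1%). Among the 20 red cell genes with a window, 5 held AGATAA (25%) and 12 held CCAAT (60%). Of the 11793 tested genes with a window, 35.9% held CCAAT, 11.4% TTTGAA and 6.25% AGATAA, and of all 27025 windows 34.5%, 16.3% and 10.3%. A match of letters is a description of the window and shows no binding.

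Genes of megakaryocytes, the platelet-forming cells, were called higher by edgeR. Most of these calls were lost without 26-month spleen 1, as were most edgeR calls over all genes. Itga2b, the platelet integrin subunit that binds fibrinogen, had 3515, 560.4, 304, 158 and 334 normalised reads at 26 months, against 104 to 184 (median 131) at 3 months. Vwf, the von Willebrand factor stored in platelets and endothelium, had 2238, 322, 129, 129 and 277.9 at 26 months, against 61.3 to 142 (median 99.1) at 3 months. Nfe2, a transcription factor of platelet formation, had 1107, 390.3, 28.1, 23.0 and 298 at 26 months, against 10.6 to 37.4 (median 22.8) at 3 months. 26-month spleen 1 was the highest for each of them. Its list mean stood 4.99 above the 3-month mean, against 2.07 and 1.91 in 26-month spleens 2 and 5 and at most 0.40 in a 3-month spleen. edgeR called all 20 tested members higher and limma 0, with 19 higher at an unadjusted p under 0.05, and without 26-month spleen 1 edgeR called 1. Over all tested genes edgeR called 624 higher, and 72 without 26-month spleen 1. The list median was 1.82 on the log2 scale, and 0.99 without 26-month spleen 1. Genes of stem and progenitor cells moved less. Of 17 tested, edgeR called 3 higher and limma 0 (3 higher and 1 lower at an unadjusted p under 0.05), with a median of 0.15. With 26-month spleen 1 left out, edgeR called 0 of them and the median was 0.02. One of the 3, Lmo2, a partner of GATA and TAL1 factors in early blood formation, had 112, 122, 1.48, 8.17 and 42.5 at 26 months, against 0 to 4.2 (median 3.03) at 3 months (edgeR log2 change 4.44, adjusted p = 0.0104).

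**Figure D3:**
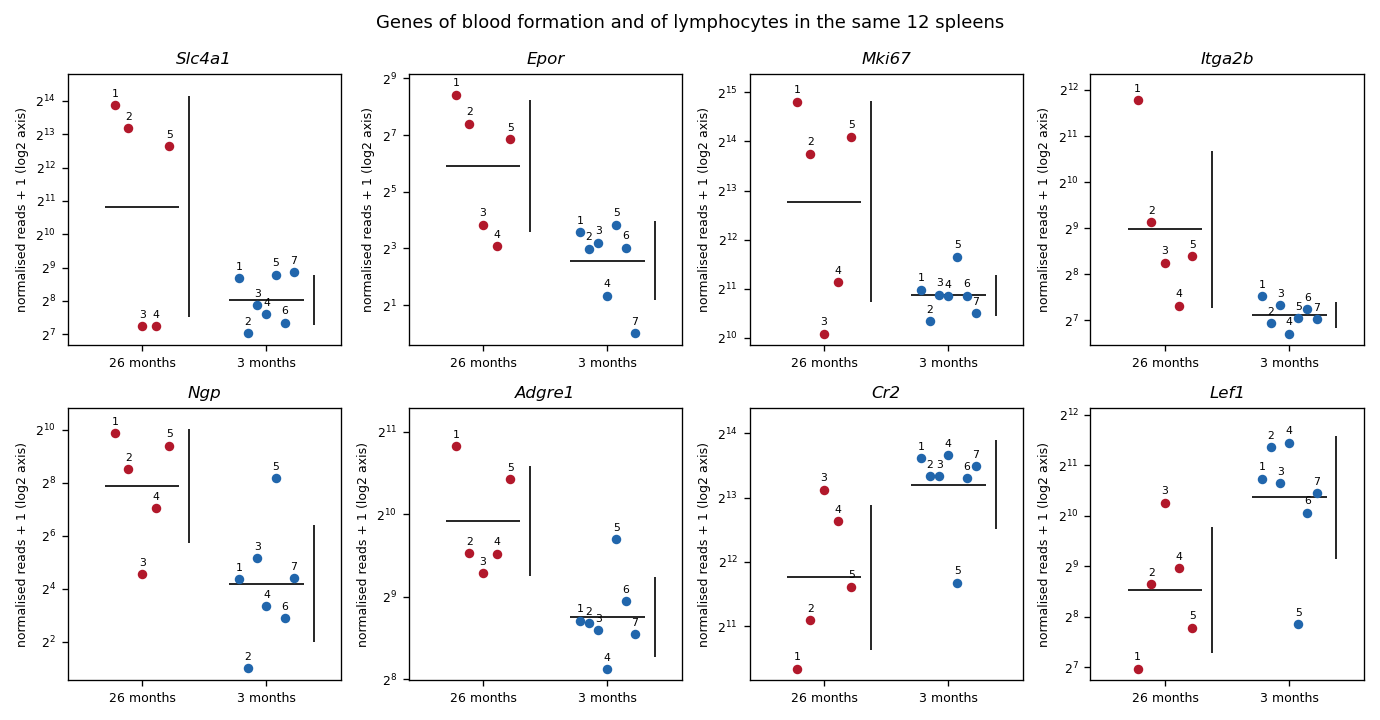
Normalised reads plus 1 (log2 y axis) of 8 genes in each spleen, 26 months at left and 3 months at right; numbers name the libraries, horizontal lines are means and vertical bars 1 SD, both on the log2 scale. For Slc4a1, Epor, Mki67 and Itga2b, 26-month spleens 1, 2 and 5 lie above all 3-month spleens. For Itga2b 26-month spleen 3 also lies above all 3-month spleens. For Cr2 and Lef1 3-month spleen 5 lies far below the other 3-month spleens.

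Several of the genes with the largest rises in limma followed the blood-forming genes. Apol11b, an apolipoprotein L gene, had 5033, 2806, 141, 31.9 and 2389 normalised reads at 26 months, against 32.5 to 177 (median 68.8) at 3 months (log2 change 3.32, SE 0.82, limma adjusted p = 0.0498). Aqp1, the water channel of red cells and of endothelium, had 1922, 821, 42.9, 63.1 and 819.7 at 26 months, against 27.8 to 102 (median 34.8) at 3 months (log2 change 2.75, SE 0.66, limma adjusted p = 0.0483). Ache, the acetylcholinesterase that is also anchored on red cells, had 492, 236, 56.3, 14.1 and 133 at 26 months, against 2.52 to 29.2 (median 17.9) at 3 months (log2 change 2.76, SE 0.65, limma adjusted p = 0.0468). In each case 26-month spleens 1, 2 and 5 were above all 3-month spleens, and 26-month spleen 3 or 4 lay within the young range.

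Further called genes were also highest in 26-month spleen 1. The carboxylesterase Ces2g had 689, 374, 10.4, 20.8 and 318 at 26 months, against 3.97 to 31.2 (median 9.51) at 3 months. Sec14l2, a lipid transfer protein, had 233, 104, 11.8, 16.3 and 126 at 26 months, against 2.38 to 12.6 (median 4.54) at 3 months. Fn3k, which removes sugar adducts from proteins, had 221, 175, 8.88, 10.4 and 104 at 26 months, against 1.68 to 7.29 (median 3.17) at 3 months, so that even its lowest old spleens lay just above the young range. Aldh1a1, which makes retinoic acid from retinal, had 1601, 708, 105, 145 and 822 at 26 months, against 33.3 to 272 (median 68.8) at 3 months. Asns, the asparagine synthetase induced by amino acid shortage, had 488, 218, 41.5, 37.1 and 378 at 26 months, against 11.1 to 105 (median 19.7) at 3 months, and was the 1 member of 19 tested genes of the ATF4 amino acid response that limma called. The median of that list was 0.59, and edgeR called 2 of its members higher, or 1 without 26-month spleen 1 or 5. Coagulation factor X, F10, had 415, 26.9, 32.6, 28.2 and 108 at 26 months, against 3.36 to 17.5 (median 8.98) at 3 months. Its groups did not overlap, and the next highest value after 26-month spleen 1 was 108, in 26-month spleen 5. Each of these 6 genes was called by limma in 2 of the 5 fits without 1 old library.

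Neutrophil granule genes were higher in the old spleens on average and varied widely at both ages. Fcnb, a ficolin of neutrophil precursors, had 40.4, 21.5, 17.8, 11.1 and 29.3 normalised reads at 26 months and 0 to 14.6 (median 0) at 3 months (log2 change 3.67, SE 0.82, limma adjusted p = 0.0334). It was the 1 of 20 tested members that limma called, and edgeR called 2. Ltf, the iron-binding lactoferrin, had 534, 208, 45.9, 60.9 and 415 at 26 months and 0.992 to 197 (median 9.08) at 3 months (log2 change 3.79, SE 0.95, limma adjusted p = 0.0559). Ngp, the neutrophilic granule protein, had 947, 366, 22.2, 131 and 679 at 26 months and 0.992 to 289 (median 19.7) at 3 months (log2 change 3.70, SE 0.99, limma adjusted p = 0.0661). The highest young value of each came from 3-month spleen 5. Without that library edgeR called 12 of the 20 higher, and without 26-month spleens 1 to 5 in turn it called 1, 1, 12, 7 and 0. All 20 were higher on average, with a median of 2.03, and 13 had an unadjusted limma p under 0.05.

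Red pulp macrophages recycle haem iron. Adgre1, which encodes their surface marker F4/80, rose to 1814, 738, 622, 734 and 1374 normalised reads at 26 months, against 277.7 to 828.6 (median 408) at 3 months (log2 change 1.16, SE 0.23, limma adjusted p = 0.0131). The highest young value was that of 3-month spleen 5, and the other 6 young spleens lay below all 5 old ones. Blvrb, a biliverdin reductase of haem breakdown, had 1824, 1115, 262.1, 334 and 921 at 26 months, against 257 to 378 (median 297) at 3 months (log2 change 1.18, SE 0.35, limma adjusted p = 0.0878, edgeR log2 change 1.55, adjusted p = 0.00704). Cd5l, a secreted protein of tissue macrophages, had 2614, 256, 293, 527 and 693 at 26 months, against 149.8 to 654 (median 217) at 3 months (log2 change 1.21, SE 0.43, limma adjusted p = 0.138, edgeR log2 change 1.61, adjusted p = 0.0253), and 26-month spleens 2, 3 and 4 lay within the young range. Of 21 tested macrophage and haem iron genes, limma called 1 and edgeR 3 higher, and all 21 were higher on average with a median of 0.70. Without 26-month spleen 1, edgeR called 1 and limma 0, with a median of 0.37. Without 26-month spleen 3, edgeR called 9 with a median of 1.21, and without 3-month spleen 5 it called 12 with a median of 1.08. Of 15 monocyte genes, edgeR called 1 higher, Itgam, the CD11b integrin subunit, with 365, 419, 401, 349 and 977 at 26 months and 201 to 309 (median 251) at 3 months, without overlap (edgeR log2 change 0.97, adjusted p = 0.0269). Without 26-month spleen 1 or 5, edgeR called 0 of them. limma called 0 of the 15, with 3 higher and 2 lower at an unadjusted p under 0.05.

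Another set of genes differed from the young range in every old animal. All 5 old spleens lay above all 7 young ones for 43 genes (0.265%) and below them for 30 (0.185%), 73 genes in all (0.449%). Without 3-month spleen 5 these counts were 147 and 118. Of the 60 limma calls, 12 of the 33 higher and 3 of the 27 lower did not overlap. Fcgr2b (chr1:170958617-170976547 in GENCODE M21 on GRCm38, as are the other gene positions), the inhibitory Fc receptor of B cells and myeloid cells, had 1125, 1532, 761, 1104 and 1283 normalised reads at 26 months, against 343 to 740.4 (median 469) at 3 months. It rose by 1.19 on the log2 scale (SE 0.21, limma adjusted p = 0.00834), with 1.08 to 1.33 over the fits without 1 old library, 4 of which called it. Soat2 (chr15:102150526-102163469), which esterifies cholesterol, had 98.4, 98.5, 93.3, 87.6 and 95.7 at 26 months, against 24.0 to 60.3 (median 35.7) at 3 months (log2 change 1.39, SE 0.31, limma adjusted p = 0.0339). The old spleens were close to each other for Soat2, at 94.7 ± 4.49 normalised reads, and the young ones less so, at 36.7 ± 11.7 (SD, n = 5 and n = 7).

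Bcl2l15, a BCL2 family member (chr3:103832601-103854618), had 114, 129.8, 94.8, 90.6 and 148 normalised reads at 26 months, against 16.8 to 76.2 (median 38.8) at 3 months (log2 change 1.63, SE 0.31, limma adjusted p = 0.0111). Its log2 change was 1.53 to 1.71 over the 5 fits without 1 old library. Pkhd1l1, a relative of the polycystic kidney disease protein fibrocystin, had 459, 342, 50.3, 37.1 and 365 at 26 months, against 11.9 to 33.1 (median 16.9) at 3 months (log2 change 3.08, SE 0.58, limma adjusted p = 0.011). It joined a rise in all 5 old animals with the higher levels of 26-month spleens 1, 2 and 5. Aqp9, a water and glycerol channel, had 133, 97.6, 66.6, 41.6 and 91.1 at 26 months, against 4.54 to 34.1 (median 17.5) at 3 months (log2 change 2.25, SE 0.55, limma adjusted p = 0.0497). Ndnf, a secreted factor first known from neurons, had 40.4, 85.9, 42.9, 79.5 and 33.2 at 26 months, against 10.6 to 24.0 (median 20.6) at 3 months (log2 change 1.41, SE 0.34, limma adjusted p = 0.0483). 26-month spleens 2 and 4 were the highest for Ndnf, so its order among the old animals was not that of the blood-forming genes.

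Wipf3, which binds WASP proteins and actin, rose to 14.9, 83.3, 96.2, 48.3 and 68.5 normalised reads at 26 months, against 0 to 20.5 (median 6.94) at 3 months (log2 change 3.03, SE 0.54, limma adjusted p = 0.00834). 26-month spleen 1 was its lowest old value, below 3-month spleen 5, and 4 of the 5 fits without 1 old library called it. Fzd6, a Wnt receptor, had 37.8, 175, 65.1, 79.5 and 146 at 26 months, against 12.6 to 54.4 (median 19.7) at 3 months (log2 change 1.94, SE 0.39, limma adjusted p = 0.0138). It too was lowest in 26-month spleen 1. S1pr5, the sphingosine phosphate receptor by which natural killer cells leave tissues, had 102, 77.0, 169, 119.6 and 99.1 at 26 months, against 22.7 to 68.8 (median 37.2) at 3 months, without overlap. limma placed it just outside its threshold (log2 change 1.56, SE 0.38, limma adjusted p = 0.0511) and edgeR called it (edgeR log2 change 1.54, adjusted p = 0.00443).

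Among the genes that were lower in every old animal, Ramp1 (chr1:91179822-91225196), which pairs with the calcitonin receptor-like receptor to bind the neuropeptide CGRP, had 39.5, 31.3, 37.0, 29.0 and 37.2 normalised reads at 26 months, against 49.7 to 108 (median 71.8) at 3 months (log2 change -1.07, SE 0.23, limma adjusted p = 0.0276). Dntt (chr19:41029275-41059525), the terminal transferase that adds bases at V(D)J joints in developing lymphocytes, had 11.4, 9.85, 4.44, 9.66 and 3.99 at 26 months, against 25.7 to 49.5 (median 31.4) at 3 months (log2 change -2.03, SE 0.48, limma adjusted p = 0.0483). Actn2, an actinin best known from muscle, had 1.76, 14.3, 16.3, 10.4 and 3.32 at 26 months, against 17.9 to 33.3 (median 26.5) at 3 months (log2 change -1.67, SE 0.40, limma adjusted p = 0.0483). The groups did not overlap for any of these 3, but Dntt and Actn2 had few reads at 26 months. Efcab9 and Mei4, known from sperm and from meiosis and both low in spleen, were called lower with changes of -2.18 and -1.81 on the log2 scale.

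**Figure D4:**
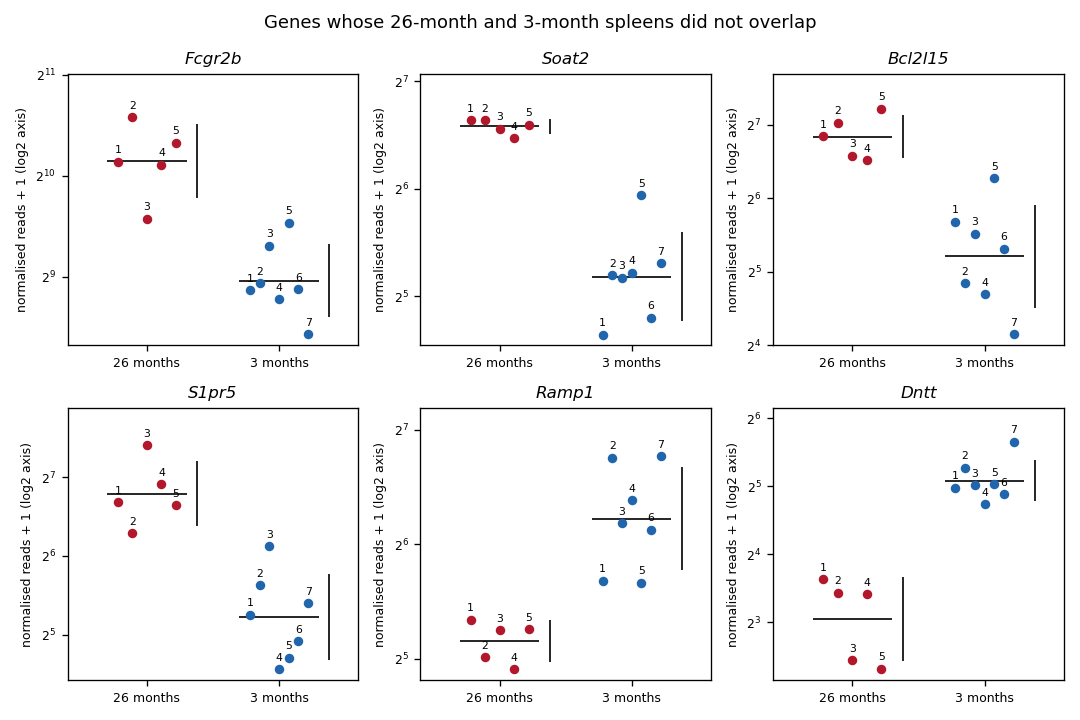
Normalised reads plus 1 (log2 y axis) of 6 genes in each spleen, 26 months at left and 3 months at right; numbers name the libraries, horizontal lines are means and vertical bars 1 SD, both on the log2 scale. All 5 old spleens lie above all 7 young ones for Fcgr2b, Soat2, Bcl2l15 and S1pr5 and below them for Ramp1 and Dntt.

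Genes of B cells were among the largest falls. Cr2, the complement receptor CD21, which lowers the threshold of B-cell activation, fell to 1292, 2183, 8933, 6343 and 3133 normalised reads at 26 months, against 3274 to 12977 (median 10295) at 3 months (log2 change -1.44, SE 0.32, limma adjusted p = 0.0334). The lowest young value belonged to 3-month spleen 5, and the other 6 young spleens lay above all 5 old ones. Vpreb3, a chaperone of immunoglobulin assembly, fell to 11.4, 26.0, 77.0, 60.9 and 21.3 at 26 months, against 64.3 to 136 (median 117) at 3 months (log2 change -1.75, SE 0.36, limma adjusted p = 0.0172). Rapgef4, a cyclic AMP sensor, fell to 33.4, 95.8, 206, 152 and 91.7 at 26 months, against 119 to 348 (median 307) at 3 months (log2 change -1.41, SE 0.28, limma adjusted p = 0.0138). For both, the lowest young value was again that of 3-month spleen 5, and 26-month spleens 3 and 4 had the highest old values. Both lay inside the young range for Rapgef4. For Vpreb3, spleen 3 lay inside it and spleen 4, at 60.9, just below it.

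Further genes were called lower by limma. Zfp608, a zinc finger gene, had 242, 255, 693, 532 and 271.2 at 26 months, against 481 to 1159.7 (median 809.6) at 3 months (log2 change -1.15, SE 0.21, limma adjusted p = 0.00878), and was called in 3 of the 5 fits without 1 old library. Hes1, a target of Notch signalling, had 145, 249, 537, 299 and 165 at 26 months, against 410.4 to 701 (median 556) at 3 months (log2 change -1.07, SE 0.24, limma adjusted p = 0.0334). Carboxypeptidase M, Cpm, had 40.4, 90.4, 192, 244 and 148 at 26 months, against 184 to 419 (median 311) at 3 months. The collagen Col19a1 had 3.51, 30.4, 26.7, 26.0 and 5.98 at 26 months, against 14.6 to 84.8 (median 60.5) at 3 months. Emid1, a secreted EMI-domain protein, had 31.6, 25.1, 68.1, 111 and 54.5 at 26 months, against 106 to 144 (median 119) at 3 months. Pxdc1 and Tmem108 were called lower with changes of -1.13 and -1.74 on the log2 scale. The age groups overlapped for all 7.

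Of 12 tested genes of follicular and recirculating B cells, limma and edgeR each called 2 lower, Cr2 and Vpreb3, beside 0.166% of all genes called lower by limma and 0.511% by edgeR. All 12 were lower on average, with a median of -0.72, and 9 had an unadjusted limma p under 0.05. Leaving out 26-month spleen 1, limma and edgeR called 0 of the 12 and the median was -0.41. Over all tested genes they then called 3 and 4 lower. Without spleen 2 or 5 limma called 0 of the 12 and edgeR 1. Over all genes limma then called 0 lower, and edgeR 30 or 16. Without spleen 3, limma called 10 of the 12 and edgeR 5, beside 850 and 739 of all genes called lower. Fcer2a, the low-affinity IgE receptor CD23, had 109, 383, 1036, 1702 and 785 normalised reads at 26 months and 1070.5 to 2177 (median 1252) at 3 months (log2 change -1.31, SE 0.38, limma adjusted p = 0.082). 26-month spleen 4 had more Fcer2a than 5 of the 7 young spleens. Of 17 general B-cell genes, 0 were called by limma, edgeR or DESeq2, with 9 lower at an unadjusted limma p under 0.05 and a median of -0.49, or -0.19 without 26-month spleen 1. Their list mean stood 2.0 below the 3-month mean in 26-month spleen 1, 0.17 below in spleen 2, 0.09 above in spleen 3, at 0.00 in spleen 4 and 0.75 below in spleen 5. Ebf1, an early B-cell factor, had 602, 3343, 10318, 4217 and 1395 at 26 months and 1955 to 11824 (median 9644) at 3 months (log2 change -1.48, SE 0.46, limma adjusted p = 0.0949). The summed level of the red cell list was highest in 26-month spleen 1, where the B-cell sum was 10549, against 24285 to 53518 in the other 4 old spleens and 26009.5 to 56893 at 3 months.

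Marginal zone B-cell genes had 2 members called lower, Cr2 and Rapgef4, and a median of -0.19 over 15. Without 26-month spleen 1 limma and edgeR called 0 of them, beside 3 and 4 of all tested genes called lower. Genes of age-associated B cells, a subset that collects in old mice, went the other way: all 12 tested were higher on average, with a median of 0.38. edgeR called 2 of them and limma 0, with 3 at an unadjusted p under 0.05. The 2 were Zbtb32 and Itgam, and Itgam is also the gene called on the monocyte list. Without 26-month spleen 1, 2 or 5 edgeR called 1 of the 12. Zbtb32, a zinc finger repressor of memory B cells, had 61.5, 328, 101, 73.5 and 85.8 normalised reads at 26 months and 17.5 to 70.9 (median 37.7) at 3 months (log2 change 1.36, SE 0.36, limma adjusted p = 0.064, edgeR log2 change 1.54, adjusted p = 0.00677). Of 11 germinal centre genes limma and edgeR called 0, with 3 lower at an unadjusted limma p under 0.05 and 1 called lower by DESeq2, and Bcl6, the repressor that drives the germinal centre programme, had 246, 522, 1278, 744 and 349 at 26 months and 515 to 1624 (median 1086) at 3 months (log2 change -0.99, SE 0.28, limma adjusted p = 0.0751).

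Few T-cell genes passed the tests. The mean of the naive T-cell list stood 1.96, 0.78, 0.36 and 1.23 below the 3-month mean in 26-month spleens 1, 2, 4 and 5 and 0.02 above it in spleen 3, with 3-month spleen 5 at 0.99 below it. Lef1, which with Tcf7 keeps T cells naive, had 125, 401, 1227, 499 and 219 normalised reads at 26 months and 229 to 2802 (median 1599.9) at 3 months. limma did not call it (log2 change -1.84, SE 0.48, limma adjusted p = 0.064) and edgeR did (edgeR log2 change -1.73, adjusted p = 0.025). Dapl1, also a gene of naive T cells, had 9.66, 26.0, 74.0, 97.3 and 22.6 at 26 months and 41.1 to 186 (median 116) at 3 months (log2 change -1.73, SE 0.52, limma adjusted p = 0.0881). For both genes 3-month spleen 5 had the lowest young value. Of 16 naive T-cell genes limma called 0, with 11 lower at an unadjusted p under 0.05, and edgeR called 1; the median was -0.84, and 15 of the 16 were lower on average. Without 26-month spleen 1 the median was -0.52, and without 26-month spleen 1, 2 or 5 edgeR called 0, while without spleen 3 it called 8. Over all tested genes edgeR called 4, 30 and 16 lower without spleens 1, 2 and 5, and 739 without spleen 3. The T-cell co-receptor Cd4 had 187, 496, 721, 778 and 761 at 26 months and 691 to 1071 (median 917) at 3 months (log2 change -0.76, SE 0.21, limma adjusted p = 0.0746), and the mean of the 19 general T-cell genes in 26-month spleen 1 stood 1.56 below the 3-month mean.

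Gzmk, the granzyme of effector memory T cells, rose to 11.4, 76.1, 44.4, 29.7 and 67.8 normalised reads at 26 months, against 0.84 to 19.9 (median 8.98) at 3 months (log2 change 2.34, SE 0.53, limma adjusted p = 0.0341). Only 26-month spleen 1 lay within the young range for it. Ccl5, a chemokine of effector T cells and natural killer cells, rose to 289, 522, 490.1, 413 and 527 at 26 months, against 188 to 345 (median 219) at 3 months (log2 change 0.95, SE 0.21, limma adjusted p = 0.0334), and again 26-month spleen 1 was the lowest old value. These were the 2 of 20 effector genes that limma called, and edgeR called the same number. The list median was 0.51, with 17 of 20 higher on average, and the list mean in 26-month spleen 1 stood 0.13 below the 3-month mean. Without 26-month spleen 2 or 5, limma called 0 of the 20, and only 0 and 3 of all 16243 tested genes. Gzma, the granzyme of natural killer and effector cells, had 14.1, 15.2, 0, 25.3 and 9.97 at 26 months and 17.2 to 116 (median 64.2) at 3 months (log2 change -2.44, SE 0.72, limma adjusted p = 0.0864), the opposite direction to Gzmk.

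Natural killer genes were mixed. Klrc1, which encodes the NKG2A receptor, had 94.0, 102, 169, 88.4 and 77.1 normalised reads at 26 months, against 25.2 to 73.4 (median 64.3) at 3 months, without overlap, and passed neither limma (log2 change 1.03, SE 0.32, limma adjusted p = 0.093) nor edgeR (edgeR log2 change 1.00, adjusted p = 0.0511). Of 16 tested, 9 were higher and 7 lower on average, with a median of 0.14, limma called 0 (2 higher and 4 lower at an unadjusted p under 0.05), and edgeR called 1, S1pr5. Of 18 dendritic cell genes limma and edgeR called 0, with 7 lower at an unadjusted limma p under 0.05 and 1 called lower by DESeq2. Siglech, a receptor of plasmacytoid dendritic cells, had 54.5, 227, 459, 522 and 147 at 26 months and 189.6 to 1851 (median 626) at 3 months (log2 change -1.53, SE 0.44, limma adjusted p = 0.0779).

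The interferon-stimulated list was highest in 1 old animal. Its mean stood 1.97 above the 3-month mean in 26-month spleen 1 and between 0.40 below and 0.74 above it in the other 4 old spleens. edgeR called 3 of the 22 tested higher and limma 0. At an unadjusted limma p under 0.05, 3 were higher, beside 16.2% of all tested genes at that p in either direction. Without 26-month spleen 1 edgeR called 0 of the 22, beside 72 of all tested genes called higher. Of 16 inflammatory cytokine and chemokine genes limma called 1 higher, Ccl5, and edgeR 2, with a median of 0.59, or 0.38 without 26-month spleen 5. The list mean stood 0.83, 0.63, 0.11, 0.67 and 1.66 above the 3-month mean in 26-month spleens 1 to 5, against 0.21 below to 0.44 above it at 3 months, so that 4 of the 5 old spleens lay above the young range. MHC class II genes stood 1.46 below the 3-month mean in 26-month spleen 1, and limma and edgeR called 0 of 10, with 3 lower at an unadjusted limma p under 0.05 and 1 called lower by DESeq2. Of 17 p53 target and senescence genes limma, edgeR and DESeq2 called 0, with a median of 0.31. At an unadjusted limma p under 0.05, 1 of the 17 was higher, beside the same 16.2% of all tested genes. Of 12 plasma cell genes all 3 tools called 0, with 3 higher and 1 lower at an unadjusted limma p under 0.05.

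The other WT mice gave a check of direction in animals of a separate table. There the span was shorter, 21 or 23 against 5 months, and with 3 spleens a group limma called 0 of 15512 genes, with 1748 (11.3%) at an unadjusted p under 0.05, and edgeR called 0. Of these 6 libraries young WT spleens 2 and 3 stood apart. The sum over 14 exocrine pancreas genes was 152, 93.8 and 185 normalised reads in old WT spleens 1 to 3, against 139.7, 4625 and 1849.7 in young WT spleens 1 to 3. The part of these libraries in the results below was measured by leaving out both, a choice made after seeing the data; the values then rest on 1 young library and carry no test. Of the genes called higher at 26 months, 25 of 32 tested there were also higher in the old WT spleens, and of those called lower 24 of 27 were also lower, beside 55.4% of 15106 genes with the same sign in both comparisons. Without both young WT spleens that stood apart these counts were 29 and 23, beside 58.1%. Of the genes without overlap, 28 of 41 that were above the young range at 26 months (68.3%) and 18 of 30 that were below it (60%) had the same sign, shares closer to that of all genes. Fcgr2b had 1492, 1991 and 2401 normalised reads in old WT spleens, against 924, 951 and 993 in young WT spleens (log2 change 1.01, SE 0.16, limma adjusted p = 0.0883). Wipf3 had 84.5, 128 and 152 in old WT spleens, against 32.2, 32.5 and 58.8 in young WT spleens. Ndnf had 65.0, 92.6 and 153 in old WT spleens, against 37.0, 41.7 and 54.3 in young WT spleens. Klrc1 had 160.1, 195 and 285 in old WT spleens, against 67.6, 75.2 and 102 in young WT spleens. These 4 genes were chosen after their values were seen, and old and young WT spleens did not overlap for any of them. Their separation is therefore no test. Of the other genes plotted above for lying apart in every 26-month spleen, Dntt also separated (10.7 to 17.3 in old against 20.2 to 26.6 in young WT spleens). The groups overlapped for Bcl2l15 (117 to 188 against 86.4 to 134) and S1pr5 (138 to 272 against 112 to 143). They also overlapped for Soat2 (166.9 to 190.7 against 127.2 to 167.1) and Ramp1 (81.4 to 87.5 against 83.0 to 111). Pkhd1l1, also chosen after its values were seen, was lower on average in old WT spleens. It had 39.3, 41.7 and 54.4 there, against 44.3, 60.9 and 68.4 in young WT spleens. The values 60.9 and 68.4 were those of young WT spleens 2 and 3. Young WT spleen 1, at 44.3, lay within the old range.

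Lists of blood-forming cells differed in direction in those animals, and the red cell list turned with the libraries that stood apart. Mki67 had 3225, 3301 and 3529 normalised reads in old WT spleens, against 3834, 4357 and 6407 in young WT spleens. Ank1 had 36.7, 39.4 and 42.7 in old WT spleens 1 to 3, against 36.6, 152 and 126 in young WT spleens 1 to 3. Slc4a1 had 245, 318 and 434 in old WT spleens 1 to 3, against 124, 1463 and 1085 in young WT spleens 1 to 3. For both, the high values were those of young WT spleens 2 and 3, and young WT spleen 1 lay below all old ones. Of 31 division genes and 29 red cell precursor genes, 0 were higher on average in old WT spleens, with medians of -0.44 and -0.80 on the log2 scale. Without young WT spleens 2 and 3, the division genes had a median of -0.19 with 8 of 31 higher, and the red cell genes a median of 0.19 with 20 of 29 higher. Megakaryocyte genes had a median of 0.17 with 15 of 20 higher, and neutrophil genes 0.27 with 12 of 16 higher, the direction seen at 26 months; without these young spleens the medians were 0.38 and 0.66. The differences from the 26-month comparison were not tested. Naive T-cell genes had a median of -0.44 there, follicular B-cell genes -0.25 and age-associated B-cell genes 0.39. Dapl1 had 11.3, 19.3 and 32.0 in old WT spleens, against 96.2, 121 and 222 in young WT spleens.

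**Figure D5:**
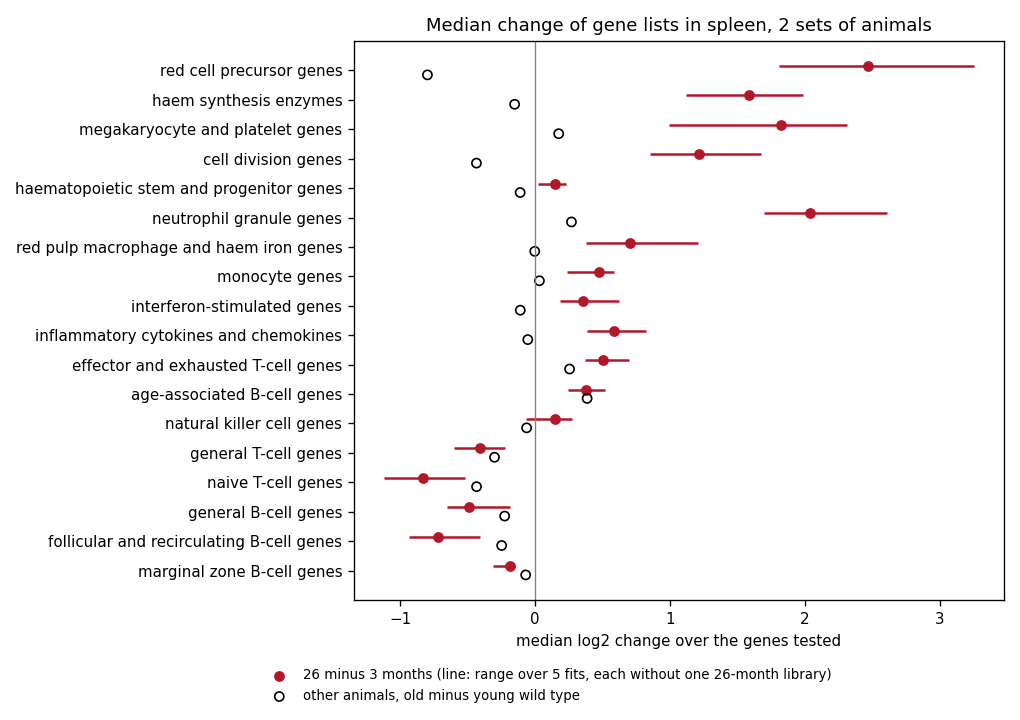
Median log2 change of 18 gene lists (rows) between 26 and 3 months (filled points, with the range over the 5 fits that leave out 1 old library as lines) and between old and young WT spleens of other animals (open circles); the x axis is in log2 units. Red cell precursor genes have medians of 2.47 at 26 months and -0.80 in the other animals (0.19 without the young WT spleens 2 and 3), and age-associated B-cell genes 0.38 and 0.39.

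In the brains of the same 12 mice limma called 53 of 15566 genes (0.340%) between 26 and 3 months. This brain fit used the 12 brain libraries alone, whereas the 60 spleen calls came from a model over all 45 spleen libraries. With its 12 libraries alone the spleen had 0 limma calls, so the shares called in brain and spleen come from unlike fits. Of the 60 genes called in spleen, 45 were tested in brain and 0 were called there by limma, with 8 at an unadjusted p under 0.05, beside 8.94% of all genes tested in brain. Fcgr2b, an Fc receptor that microglia also express, had 34.1 to 68.8 normalised reads in the 26-month brains, against 8.92 to 33.1 in the 3-month brains (log2 change 1.27, limma adjusted p = 0.055).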

How the data were processed

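Spleens of 5 mice at 26 months and 7 at 3 months were compared within a table of 45 spleen libraries. Per the labels' protocols, total RNA from TRI-Reagent was cleaned and made into libraries by ligation with TruSeq reagents. Listed tools include HISAT2 2.1.0 with GRCm38, bcl2fastq 2.20, cutadapt, SAMtools, DESeq2 and R 3.5.1, per the submitters' processing notes; the counter, its strand setting and the annotation are not given in the sources used here, so overlapping and antisense genes cannot be told apart. The deposited signal values had been scaled by the authors with a size factor for each library: 100% of the spleen values came out as whole reads, within 0.01 of a read. Genes with a value of 10 or more in at least 5 libraries were tested (16243 of 51810). The main test was limma 3.58.1 (R 4.3.3, mean-variance trend) on log2 of the value plus 1, with a mean per age over all 45 libraries, so log2 changes of genes with few reads are understated. Tests were two-sided and adjusted over all genes by Benjamini-Hochberg. The recovered reads were also tested with DESeq2 1.42.0 and with the quasi-likelihood test of edgeR 4.0.16. The main limma, edgeR and DESeq2 fits were also run on simulated reads. There each gene varied on its own, so the simulation does not cover the shared division among the old spleens. Alternatives were another pseudocount, filter, scaling or weighting, and leaving out libraries. The second table used a value of 10 in at least 3 libraries. No 2 of the 12 libraries were closer than read sampling allows (variance ratio 1.99 to 8.33 over 66 pairs, where 1 is sampling alone).

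Named genes are the 15 largest rises and 15 largest falls among called genes whose higher group averaged at least 20, 10 genes without overlap whose log2 change was at least 1 in each fit without 1 old library, and 3 genes with the smallest p from each list, leaving out predicted genes, pseudogenes and receptor variable segments; others are marked as chosen after their values were seen, and 1 result is not reported here. A list mean is the mean log2 value of its tested genes. The comparison, the lists and their members were chosen with earlier results of these data known. Replicate numbers follow the order of deposit. Codes beginning with ET in the titles are not explained in the labels and were not used. Promoter sequences are from RefSeq (GRCm38.p6), where 28 of 32 division genes and 20 of 31 red cell genes had a window. Figures were drawn with matplotlib.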

Additional observations from a re-analysis of the deposited data

Results flagged for a closer look

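The values here are those of libraries whose gap to the nearest of the others is large against the spread of their age group (Dixon's ratio at 95%, on the log2 scale). Chance alone gives about 1 in 20 such groups. Over 65 genes and 32 list means, 2 values stood out at 26 months and 20 at 3 months, and most of the 20 were those of 1 library, 3-month spleen 5.

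At 26 months, Itgam was highest in 26-month spleen 5, at 977 normalised reads, and Gzma was lowest in 26-month spleen 3, where it was listed at 0.

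At 3 months, 3-month spleen 5 had the highest Cdk1, at 392 normalised reads. It had the lowest values of 6 genes. Cr2 stood there at 3270 when rounded to 3 digits, Vpreb3 at 64.3, Rapgef4 at 119 and Ebf1 at 1950 when rounded likewise. Lef1 stood at 229 and Dapl1 at 41.1 after the same rounding. Outside that library, Ndnf was lowest in 3-month spleen 4, at 10.6, and Ccl5 was highest in 3-month spleen 3, at 345.

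List means of 3-month spleen 5, as log2 differences from the 3-month mean, were highest for neutrophil genes at 2.1, matrix genes at 1.78, adipocyte genes at 1.49, lysosome genes at 1.2, endothelial genes at 1.11, stromal genes at 0.866 and interferon-stimulated genes at 0.58. They were lowest for naive T-cell genes at -0.991, general T-cell genes at -0.884, follicular B-cell genes at -0.781 and general B-cell genes at -0.667.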

How the results depend on the processing

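No paired analysis was possible because the labels give no replicate numbers, and animals of different ages share none. Of the 60 genes limma called (33 higher, 27 lower), the count was 47 with a pseudocount of 0.5 and 60 with 8, 53 with robust estimation and 58 with TMM scaling. It was 25 (18 higher, 7 lower) with no filter on low values, 36 (18 higher) with a minimum of 50, and 0 (0 higher, 0 lower) with the 12 libraries alone, with 1965 at an unadjusted p under 0.05. With library weights it was 1675 (904 higher, 771 lower), with edgeR 707 (624 higher, 83 lower), with DESeq2 896 (727 higher, 169 lower), and without libraries under 5000000 reads 1481 (839 higher, 642 lower). Leaving out 1 library at a time gave 0 to 1789 calls, 0 to 939 higher and 0 to 850 lower; without 3-month spleen 5 there were 340 higher and 345 lower. The cause of these shifts was not tested. Further fits were chosen after seeing the data. edgeR called 76, 459, 2002, 1069 and 409 genes without 26-month spleens 1 to 5 in turn and 1260 without 3-month spleen 5, against 707. The 73 genes without overlap became 95 to 333, with 265 when 3-month spleen 5 is left out. In the other WT animals the count of 0 became 0 to 2 without 1 library, and in brain the count of 53 became 30 to 48. No log2 change of the 65 named genes turned its sign under the alternatives, apart from the edgeR fits without 1 library, where signs were not compared. Of the gene results under the alternatives compared, 328 lost a call, 174 gained one and 987 did neither. Of 448 list medians 1 moved by more than the SD between the old libraries: p53 target and senescence genes had a median of 0.53 without 26-month spleen 3. Leaving out 1 library seldom moves a median by more than that SD. This count therefore does not show that the lists were stable. Over the fits without 1 old library, the red cell median ran from 1.81 to 3.26 and the megakaryocyte median from 0.99 to 2.31. Depth limits genes with few reads, such as Fcnb and Dntt.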
